A study of Homo sapiens with 8 samples.

Results

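In 3 of 4 lines of H9 hESCs, the replicates of a line differed in the share of RNA that came from mitochondrial DNA, and the nuclear-encoded genes of those 3 pairs were compared here. H9 is an established line of human embryonic stem cells, and the series holds P1, P2, P3 and P4 hESCs, which are H9 cells at passage 40s, 100s, 200s and 300s, with 2 samples each. All 8 were cultured without feeder cells on Matrigel in mTeSR1 medium, and the study describes P3 and P4 hESCs as carrying a copy number gain on chromosome 20. The 6 samples of P1, P3 and P4 hESCs were divided within each line, so that P1-2, P3-1 and P4-1, with the higher share of expected counts on mitochondrially encoded genes, were set against P1-1, P3-2 and P4-2. These 3 samples against 3 are not groups of the study, and both levels hold each line once. The labels do not say whether the samples of a line came from separate cultures, so a p-value here measures only the spread between these samples.

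Mitochondrial DNA encodes a small set of respiratory chain subunits with the rRNAs and tRNAs needed to translate them. The other respiratory chain subunits, the RNA polymerase of mitochondria (POLRMT), the DNA packaging factor TFAM and the mitochondrial ribosomal proteins are encoded in the nucleus and imported. A functional respiratory chain therefore needs both genomes, while pluripotent stem cells are known for a high rate of glycolysis. The nuclear genome also carries old copies of mitochondrial DNA, which are annotated as pseudogenes and resemble the mitochondrial genes in sequence.

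The share of expected counts on the 37 mitochondrially encoded genes was 9.84% in P1-1 and 18.5% in P1-2, 7.53% in P3-2 and 18.4% in P3-1, and 5.89% in P4-2 and 17.2% in P4-1. The higher share was therefore 1.88, 2.44 and 2.93 times the lower one in P1, P3 and P4 hESCs, whereas the samples of P2 hESCs had 6.55% and 6.72%, a ratio of 1.03. The samples of each side were selected on these shares, which are therefore given without a test. A share cannot tell more mitochondrial RNA in a cell from less of the other RNA, and fewer cells of a type and less RNA per cell cannot be told apart in bulk samples. MT-CO1, a catalytic subunit of cytochrome c oxidase, took 2.46% and 4.49% of all counts in P1-1 and P1-2, 2.04% and 5.37% in P3-2 and P3-1, and 1.55% and 5.28% in P4-2 and P4-1. MT-RNR2, the large mitochondrial rRNA, took 1.24% and 2.55%, 0.814% and 2.56%, and 0.835% and 1.76% in the same order, so an rRNA and an mRNA both showed the split. The nuclear counts left for the comparison ranged from 25292088 to 31978953 in the 6 samples, and within a line they differed far less than the mitochondrial counts did.

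**Figure D1:**
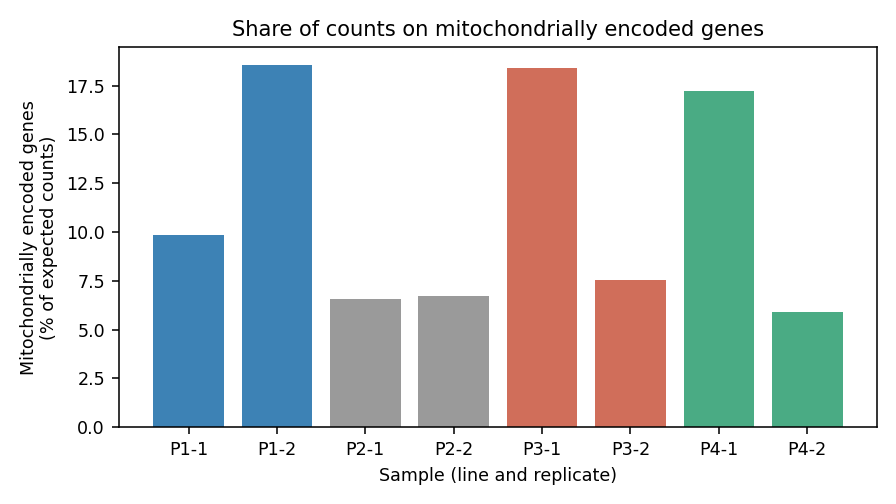
Share of expected counts on mitochondrially encoded genes (%, vertical axis) in each of the 8 samples (horizontal axis, line and replicate, 1 bar per sample). P1-2, P3-1 and P4-1 stand between 17.2% and 18.5%, their partners between 5.89% and 9.84%, and both P2 samples lie near 6.6%.

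Among the nuclear loci that follow, 3 are copies of mitochondrial genes, and their sequences show how hard they are to tell apart from the originals. MTCO1P12 lies on the plus strand at chr1:631074-632616, MTATP6P1 at chr1:633696-634376 and MTND2P28 at chr1:629640-630683 (GRCh38, GENCODE release 29), and all are annotated as unprocessed pseudogenes. MTCO1P12 differed from MT-CO1 at 20 of 1543 aligned positions and 1 gap base (98.6% identical), MTATP6P1 from MT-ATP6 at 10 of 681 (98.5%) and MTND2P28 from MT-ND2 at 17 of 1042 (98.4%). The longest stretch without a difference was 245, 141 and 266 bases in the same order, while the fragments of these libraries averaged about 200 bases. For MTATP6P1 and MTND2P28 and their partners, the window of 120 bases with the most differences is printed 5′ to 3′ from the reference, with the differing bases in capitals.
MTATP6P1: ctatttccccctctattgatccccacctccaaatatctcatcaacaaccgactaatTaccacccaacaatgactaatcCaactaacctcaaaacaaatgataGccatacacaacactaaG
MT-ATP6: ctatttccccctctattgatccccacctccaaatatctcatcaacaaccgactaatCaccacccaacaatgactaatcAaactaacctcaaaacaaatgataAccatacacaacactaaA
MTND2P28: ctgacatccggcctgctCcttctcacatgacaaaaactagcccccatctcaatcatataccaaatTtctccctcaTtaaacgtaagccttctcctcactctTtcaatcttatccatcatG
MT-ND2: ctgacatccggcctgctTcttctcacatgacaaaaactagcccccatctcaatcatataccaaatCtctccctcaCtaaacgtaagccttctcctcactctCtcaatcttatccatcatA

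The counts of these copies moved with their mitochondrial partners. MTATP6P1 had 626 and 1260 CPM, counts scaled to the nuclear total of the sample, in P1-1 and P1-2, 505 and 1291 CPM in P3-2 and P3-1, and 355 and 1203 CPM in P4-2 and P4-1. Every sample with the higher share lay above every sample with the lower share, as for 3.35% of all tested genes. As a percentage of the counts on MT-ATP6, MTATP6P1 stayed between 11.6% and 15.3% in all 8 samples. MTND2P28 stayed between 2.25% and 2.92% of MT-ND2, and MTCO1P12 between 0.206% and 0.338% of MT-CO1. Of 391 such pseudogenes in the files, 8 had enough counts to be tested. All 8, and 9116 of all 18102 tested genes, had a positive log2 difference, and those of the 8 ranged from 1.27 to 2.10. Because their values are tied to the shares that chose the samples, they are a description and are not read as differences of nuclear genes. How far reads were exchanged between the copies and the originals was not tested.

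Among 18102 nuclear-encoded genes tested with the line as a block, 9 genes (0.0497%) had an absolute log2 difference above 1 and an adjusted p under 0.01 in the quasi-likelihood test of edgeR, with p-values adjusted after Benjamini and Hochberg. Of these 9, 8 were higher in the samples with the higher mitochondrial share (0.0442%) and 1 was lower (0.00552%). MTCO1P12, MTATP6P1 and MTND2P28 were 3 of the 8. The other 6 were the protein-coding genes PCDH8 and FZD8 and the noncoding loci CERS6-AS1, ENSG00000225339, ENSG00000279033 and PYCARD-AS1. ENSG00000279033 and PYCARD-AS1 had no counts on one side and passed the filter on low counts only through the other, so they could enter the test only by differing. ENSG00000225339 (16, 0 and 1 counts in P1-1, P3-2 and P4-2) and CERS6-AS1 (80, 4 and 0) could not have passed it on the lower side alone. At an adjusted p under 0.05 there were 13 genes (0.0718%), 11 higher (0.0608%) and 2 lower (0.011%), with SLC38A5, THBS2 and the antisense locus ENSG00000257270 added on the higher side and the pseudogene SMG1P4 on the lower side. ENSG00000257270, with 3, 4 and 0 counts in P1-1, P3-2 and P4-2, also passed the filter only through the higher side. At an unadjusted p under 0.05 there were 1316 genes (7.27%), 819 higher (4.52%) and 497 lower (2.75%). DESeq2 found 56 genes at an adjusted p under 0.05, and limma on log2(TPM + 1) found 0. Without the P4 pair, 0 of the 9 genes had an adjusted p under 0.05, whereas all 9 had one under 0.01 without the P1 pair and without the P3 pair. The sizes did not shrink in step, as the log2 difference without the P4 pair was 2.34 for PCDH8, 1.49 for FZD8 and 1.45 for MTCO1P12. When the mitochondrial pseudogenes were left out, ENSG00000279033 and ENSG00000225339 stayed under 0.01 and the other 4 genes lay between 0.01 and 0.05. Both loci that stayed under 0.01 had entered the test through the side where they were high.

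PCDH8 encodes a protocadherin, a cell adhesion protein that acts in the paraxial mesoderm and the nervous system. It had 3.38 CPM in P1-1 and 11 CPM in P1-2, 1.65 CPM in P3-2 and 13.8 CPM in P3-1, and 3.88 CPM in P4-2 and 15.3 CPM in P4-1. Every sample with the higher share lay above every sample with the lower share, as it did for 3.35% of all tested genes, and the P2 samples had 2.36 and 3.16 CPM. The log2 difference of PCDH8 was 2.22 (SE 0.31, edgeR adjusted p 0.00616, n = 3 pairs). In the pairs of P3 and P4 hESCs, PCDH8 was also among the 5 protein-coding genes with the greatest rise at a mean of 5 CPM or more in the pair.

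FZD8, a Frizzled receptor for WNT ligands, had 16.6 and 41.5 CPM in P1-1 and P1-2, 8.82 and 28.8 CPM in P3-2 and P3-1, and 5.65 and 14.9 CPM in P4-2 and P4-1. Its log2 difference was 1.47 (SE 0.22, edgeR adjusted p 0.00777, n = 3 pairs). The lines differed as well, with P4-1 below P1-1, so the levels overlapped across lines although each pair differed in the same direction. The P2 samples had 14.7 and 15.9 CPM of FZD8.

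The remaining 4 called genes were noncoding loci. ENSG00000279033, a locus awaiting experimental evidence, had 2.13, 0.845 and 2.46 CPM in P1-2, P3-1 and P4-1 and no counts in the other 5 samples. Against the floor of 3 counts per sample it was at least 16.0-fold higher. PYCARD-AS1, which overlaps PYCARD on the other strand, had 1.10, 0.530 and 1.24 CPM in P1-1, P3-2 and P4-2 and no counts in their partners, which makes it at least 8.30-fold lower, but it had no counts in the P2 samples either. ENSG00000225339, which overlaps NUDT3 on the other strand, had 4.47, 7.53 and 7.26 CPM in P1-2, P3-1 and P4-1 and at most 0.516 CPM in their partners. CERS6-AS1 had 13, 6.30 and 3.15 CPM in P1-2, P3-1 and P4-1 against 2.58, 0.125 and 0 CPM, and it also went from 0 to 1.77 CPM in the P2 pair, whose mitochondrial shares were alike. Whether counting used the strand is not given in the sources used here, so such loci and the genes they overlap may share reads.

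THBS2, which encodes the secreted matrix protein thrombospondin 2, had 43.8 and 84.8 CPM in P1-1 and P1-2, 20.3 and 47.5 CPM in P3-2 and P3-1, and 28.3 and 53.6 CPM in P4-2 and P4-1. Every sample with the higher share lay above every sample with the lower share, as for 3.35% of all tested genes. The log2 difference of THBS2 was 1.04 (SE 0.18, edgeR adjusted p 0.0372). Without the P3 pair its adjusted p was 0.0509. SLC38A5, a glutamine and serine transporter, had 31.2 and 57.7 CPM in P1-1 and P1-2, 70.4 and 141 CPM in P3-2 and P3-1, and 30.8 and 66.4 CPM in P4-2 and P4-1. Each pair of SLC38A5 differed by about the same amount (log2 difference 1.00, SE 0.17, edgeR adjusted p 0.0349), while P3-2 lay above P1-2 and P4-1, and with offsets for GC content and length its adjusted p was 0.0725. SMG1P4, a pseudogene of the kinase gene SMG1 that overlaps NPIPB4 on its own strand, fell by 2.36 on the log2 scale (SE 0.39, edgeR adjusted p 0.0235). Its reads may be split with near-identical copies.

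**Figure D2:**
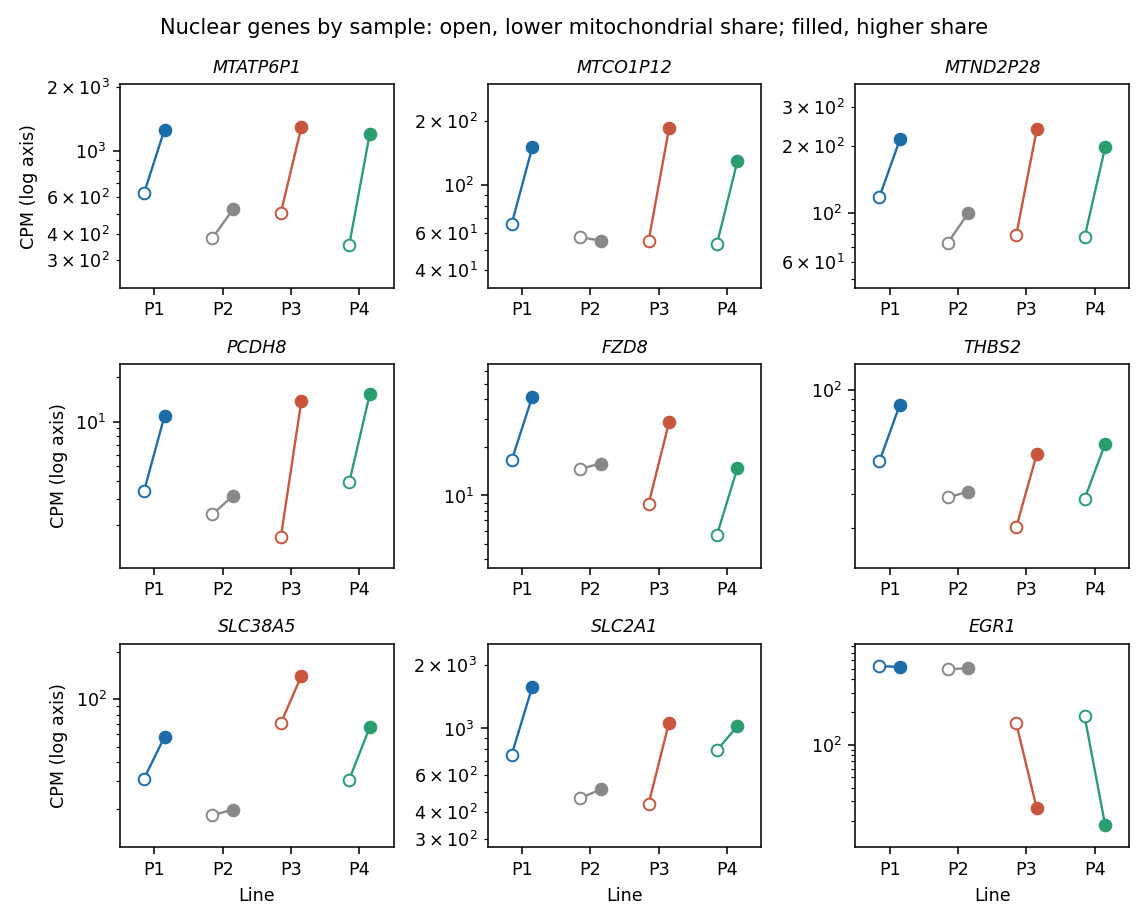
CPM of 9 nuclear genes (vertical axes, log scale, a separate range for each gene) in the samples of each line (horizontal axes). Open points are the sample of a line with the lower mitochondrial share, filled points the sample with the higher share, and lines join the samples of a line. PCDH8, THBS2 and FZD8 rise in the pairs of P1, P3 and P4 hESCs and hardly in P2 hESCs, while EGR1 is level in P1 and P2 hESCs and lower in P3-1 and P4-1.

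Across all nuclear genes, the 3 pairs had little in common. Over 15517 genes with a mean of at least 1 CPM, the log2 differences of the P1 and P3 pairs correlated with r = 0.00576, those of the P1 and P4 pairs with r = 0.0318 and those of the P3 and P4 pairs with r = 0.165. The P2 pair, in which the mitochondrial shares were alike, correlated with the P1, P3 and P4 pairs with r = 0.110, 0.120 and -0.132. These values are across genes, which are not independent replicates, and each pair shares its libraries over all genes. In size, all 3 correlations with the P2 pair exceeded those of the P1 pair with the P3 and P4 pairs. Of the 18102 tested genes, 5063 (28.0%) differed in the same direction in all 3 pairs, 2541 of them upwards (14.0%) and 2522 downwards (13.9%), and the median log2 difference of all tested genes was 0.00.

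The size of the differences did separate the lines. Differences beyond 1 on the log2 scale were found for 536 genes (3.45%) in P1, 1046 genes (6.74%) in P3 and 966 genes (6.23%) in P4 hESCs, but for 157 genes (1.01%) in P2 hESCs. The SD of the log2 differences was 0.48, 0.58 and 0.60 in P1, P3 and P4 and 0.35 in P2 hESCs. With 1 pair of each line, whether this spread follows the mitochondrial share was not tested.

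**Figure D3:**
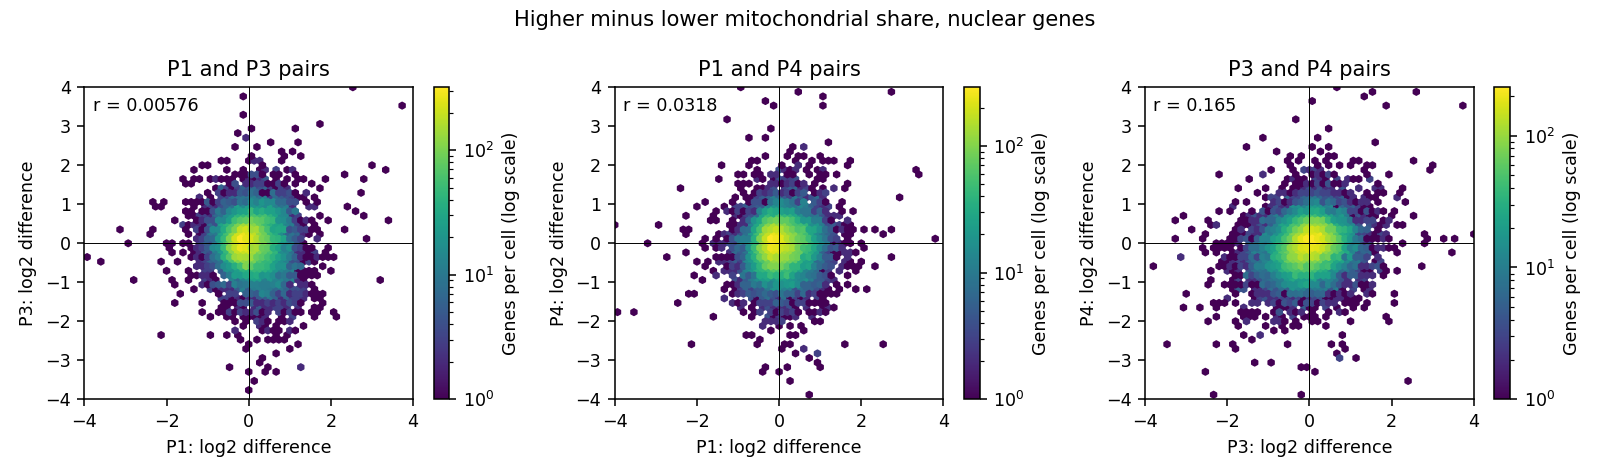
Log2 CPM differences of 15517 nuclear genes, the sample with the higher minus the sample with the lower mitochondrial share, in one line (horizontal axis) against another (vertical axis), with color for the number of genes (log scale). The clouds of the P1 and P3 pairs (r = 0.00576) and of the P1 and P4 pairs (r = 0.0318) are round, that of the P3 and P4 pairs (r = 0.165) is slightly tilted, and 45 genes lie outside the axes.

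Nuclear genes for mitochondria themselves did not pass the test. Of 79 tested nuclear subunits of the respiratory chain and ATP synthase, 0 had an adjusted p under 0.05 by edgeR or limma, and 3 (3.80%) had an unadjusted p under 0.05, all higher, a share below the 7.27% of all tested genes (4.52% higher). DESeq2 found 2 at an adjusted p under 0.05, NDUFB9 and COX6A1, beside 0.309% of all tested genes. The median log2 difference of the 79 was 0.13 beside 0.00 for all tested genes, and 65 were positive. The pairs disagreed: 27 of the 79 were higher in P1-2, 76 in P3-1 and 53 in P4-1, and 52 were higher in P2-2, where the shares were alike. Medians in the P1, P3 and P4 pairs were -0.08, 0.29 and 0.20 for the 37 subunits of complex I, which takes electrons from NADH, and 0.04, 0.44 and 0.22 for the 11 subunits of complex IV, cytochrome c oxidase.

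NDUFB9, an accessory subunit of complex I, had 110 and 167 CPM in P1-1 and P1-2, 97.8 and 170 CPM in P3-2 and P3-1, and 66.4 and 171 CPM in P4-2 and P4-1. COX6A1, a subunit of complex IV, had 230 and 395 CPM, 185 and 313 CPM, and 188 and 314 CPM in the same order. For both genes every sample with the higher share lay above every sample with the lower share, as for 3.35% of all tested genes. The log2 differences were 0.92 (SE 0.19, edgeR adjusted p 0.102) and 0.76 (SE 0.17, edgeR adjusted p 0.157). In the P2 pair NDUFB9 had 78.4 and 92.1 CPM and COX6A1 had 201 and 214 CPM.

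The machinery that makes and keeps mitochondrial RNA had no direction shared by its members. TFAM had log2 differences of -0.42, -0.16 and 0.67 in the P1, P3 and P4 pairs, and -0.50 in the P2 pair. POLRMT had 0.57, 0.22 and 0.09, and 0.33 in the P2 pair. LRPPRC, which stabilizes mitochondrial mRNAs, had -0.04, -0.01 and 0.15, and its partner SLIRP had 0.02, 0.38 and 0.48. The helicase SUPV3L1 and the nuclease PNPT1, which degrade mitochondrial RNA, had -0.37, -0.33 and 0.14 and -0.03, -0.57 and 0.28. Of 21 genes for mitochondrial DNA transcription and maintenance and 28 for mitochondrial RNA processing and decay, 1 (POLG2, lower) and 0 had an unadjusted p under 0.05. The 78 mitochondrial ribosomal proteins had medians of -0.14, 0.20 and 0.18, and the biogenesis regulators NRF1, GABPA and PPARGC1A were higher in 1, 0 and 1 of the 3 pairs.

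Over all 35 gene lists, 686 genes were tested, and 0 had an adjusted p under 0.05 by edgeR or limma. The smallest adjusted p was 0.0913, for TFAP2A. At an unadjusted p under 0.05 there were 60 (8.75%, beside 7.27% of all tested genes), 36 higher and 24 lower. DESeq2 gave 6 at an adjusted p under 0.05: NDUFB9, COX6A1, SLC2A1, TFAP2A and LEFTY1, all higher, and JUN, lower. The lists are therefore described by their counts and medians.

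The immediate-early genes, which cells transcribe within minutes of a stimulus, set P4 hESCs and in part P3 hESCs apart from P1 hESCs. Of 20 tested, 11 were lower and 0 higher at an unadjusted p under 0.05, beside 2.75% lower and 4.52% higher of all tested genes. Their median log2 difference was 0.00 in the P1 pair, -0.25 in the P3 pair and -1.34 in the P4 pair, where all 20 were lower, and 0.07 in the P2 pair. The transcription factor EGR1 had 527 and 518 CPM in P1-1 and P1-2, 157 and 25.9 CPM in P3-2 and P3-1, and 182 and 18.2 CPM in P4-2 and P4-1. FOS had 96.2 and 156 CPM, 116 and 24.0 CPM, and 279 and 19.2 CPM in the same order, so it was higher with the higher share in P1 hESCs and lower in the other lines. The log2 differences of EGR1 and FOS in the fit were -2.02 (SE 0.43, edgeR adjusted p 0.133) and -1.88 (SE 0.56, edgeR adjusted p 0.376). Without the P1 pair, 21 of 685 list genes had an adjusted p under 0.05, beside 136 of all 17986 genes tested in that fit. Of these 21, 12 were lower, with EGR1, FOS, FOSB, JUN, KLF6, EGR2, NR4A1, DUSP1 and CCN1 among them, and 9 were higher, with NODAL, LEFTY1, LEFTY2, CER1, SLC2A1, SLC16A3 and NDUFB9 among them.

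NODAL signaling, which keeps primed hESCs undifferentiated through SMAD2 and SMAD3, was described by 11 tested genes, of which 6 were higher and 0 lower at an unadjusted p under 0.05, where 4.52% and 2.75% of all tested genes were. Their medians were 0.38, 0.96 and 0.34 in the P1, P3 and P4 pairs and -0.08 in the P2 pair. The ligand gene NODAL had 3.45 and 3.62 CPM in P1-1 and P1-2, 9.10 and 40.6 CPM in P3-2 and P3-1, and 19.7 and 45.4 CPM in P4-2 and P4-1. LEFTY1, a target and inhibitor of NODAL, had 11.3 and 19.2 CPM, 40.7 and 181 CPM, and 73.8 and 101 CPM in the same order. The lines differed more than the pairs did in both genes, and the P3 pair differed most. The log2 differences were 1.2 (SE 0.31, edgeR adjusted p 0.271) and 1.12 (SE 0.26, edgeR adjusted p 0.157). INHBB, an activin subunit, had 1.68 and 3.94 CPM, 0.218 and 1.37 CPM, and 0.679 and 2.96 CPM in P1, P3 and P4 hESCs, lower share first (edgeR adjusted p 0.154). With 52, 7 and 18 counts in P1-1, P3-2 and P4-2, INHBB could not have passed the filter on low counts on the lower side alone.

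Metabolic and secretory lists had positive medians of modest size. For glucose uptake and glycolysis the median was 0.21 over 24 genes, with -0.07, 0.45 and 0.12 in the P1, P3 and P4 pairs, and 3 of the 24 were higher at an unadjusted p under 0.05, beside 4.52% of all tested genes. SLC2A1, the glucose transporter GLUT1, had 752 and 1575 CPM in P1-1 and P1-2, 437 and 1067 CPM in P3-2 and P3-1, and 788 and 1027 CPM in P4-2 and P4-1. Its samples with the higher share lay above all those with the lower share, as for 3.35% of all tested genes (log2 difference 0.91, SE 0.20, edgeR adjusted p 0.154). Of 24 cholesterol synthesis genes, 9 were higher in all 3 pairs (14.0% of all tested genes) and 7 were higher at an unadjusted p under 0.05 (4.52% of all tested genes), with medians of 0.35, 0.27 and 0.24 and 0.02 in the P2 pair. DHCR7, the enzyme of the last step to cholesterol, had log2 differences of 0.87, 0.77 and 0.38. STARD4, a sterol carrier, was the 1 gene of this list lower at an unadjusted p under 0.05. Of 15 genes of the unfolded protein response of the endoplasmic reticulum, 9 were higher in all 3 pairs, where 14.0% of all tested genes were. The chaperone gene CALR had 925 and 1446 CPM, 923 and 1320 CPM, and 651 and 989 CPM in P1, P3 and P4 hESCs, lower share first, with a log2 difference of 0.59 (SE 0.18, edgeR adjusted p 0.370).

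Genes for G2 and mitosis were mostly lower (19 of 24 in the fit), while the pairs disagreed in the median of the S phase genes. Of 24 genes for G2 and mitosis, 12 were lower in all 3 pairs, beside 13.9% of all tested genes, and 3 were lower at an unadjusted p under 0.05. Their medians were -0.17, -0.09 and -0.18 in the P1, P3 and P4 pairs and -0.03 in the P2 pair. BUB1B, a spindle checkpoint kinase, had 178 and 144 CPM, 249 and 169 CPM, and 267 and 174 CPM in P1, P3 and P4 hESCs, lower share first. TPX2, a spindle assembly factor on chromosome 20, had log2 differences of -0.51, -0.06 and -0.44. The 26 S phase genes had medians of 0.05, -0.14 and 0.30, and 6 were higher and 1 lower in all 3 pairs. The 79 cytosolic ribosomal protein genes were mostly lower in P1-2 (11 higher), higher in P3-1 (78 higher) and lower in P4-1 (28 higher), with a median of 0.04 in the fit.

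**Figure D4:**
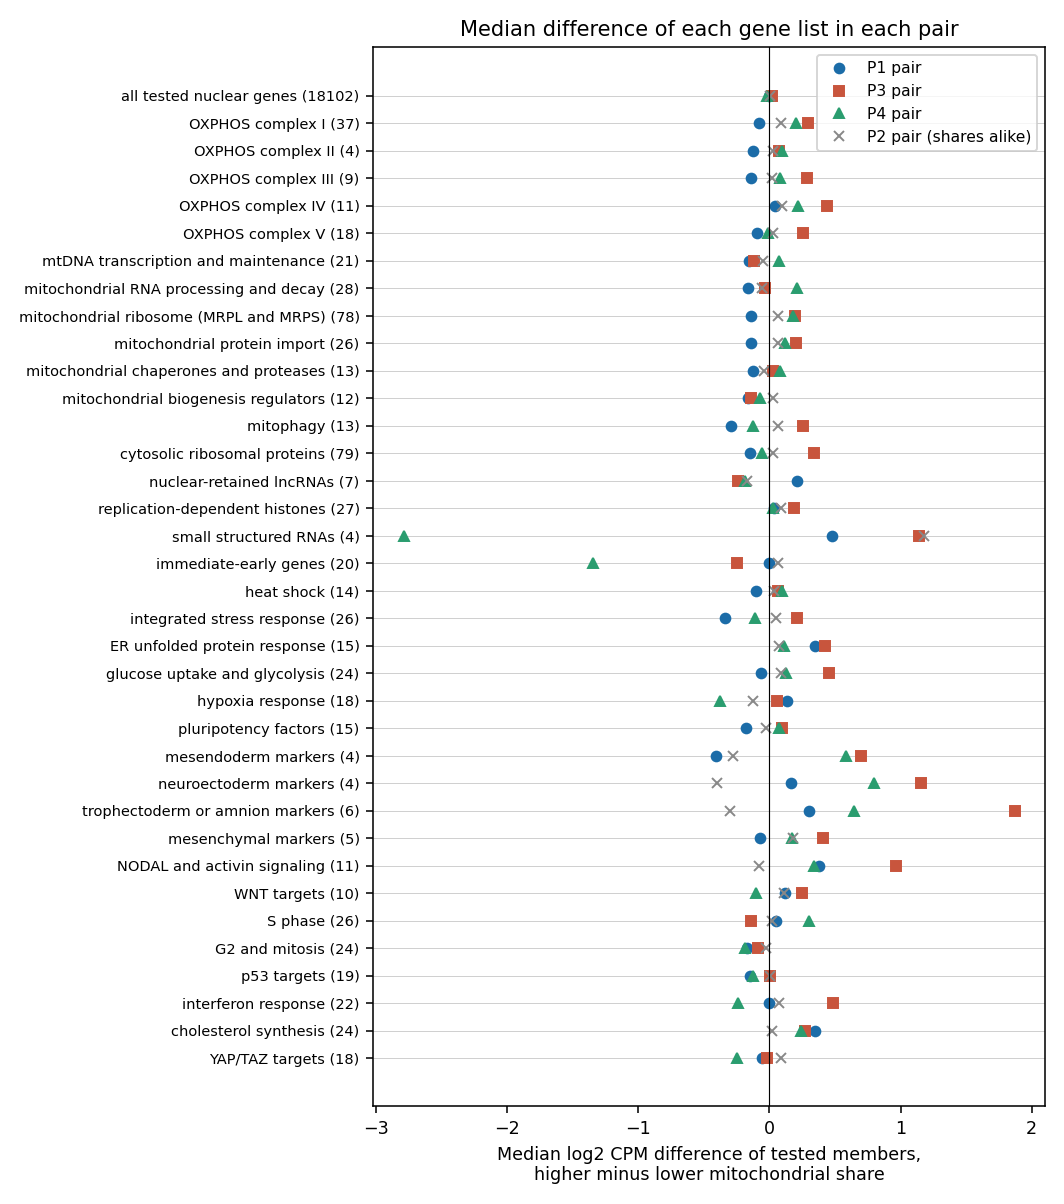
Median log2 CPM difference of the tested members (horizontal axis, sample with the higher minus the sample with the lower mitochondrial share) for each gene list (vertical axis, number tested in brackets), 1 point for each line's pair. Cholesterol synthesis, the unfolded protein response and NODAL signaling lie above 0 in the pairs of P1, P3 and P4 hESCs, G2 and mitosis lies below 0, and the immediate-early genes range from 0.00 in P1 to -1.34 in P4 hESCs.

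The samples kept the markers of hESCs on both sides of the comparison. POU5F1 ranged from 1357 to 2379 CPM and LIN28A from 1225 to 1740 CPM in the 6 samples. The summed level of 15 pluripotency factors was 7427 to 9027 CPM in the samples with the higher share and 8406 to 8806 CPM in the others. The 10 mesendoderm markers summed to 5.0 to 14.8 CPM and to 5.22 to 9.29 CPM, the 9 neuroectoderm markers to 10.1 to 21.4 CPM and to 11.8 to 19.2 CPM, and the 8 trophectoderm or amnion markers to 17.2 to 28.1 CPM and to 18.8 to 21.7 CPM, higher share first. In the 6 samples 6, 7 and 3 of these markers stayed below 1 CPM throughout, TBXT and GATA4 among them, and none was at 0 in all 6. The sums hide members at low levels. Of 6 tested trophectoderm or amnion markers, GATA3, ISL1 and TFAP2A were higher in all 3 pairs (14.0% of all tested genes). These 3 had at most 2.27 CPM, except TFAP2A in P1-2 with 6.10 CPM. The most abundant members did not rise in all 3 pairs. KRT7 had 11.96 and 11.63 CPM, 10.1 and 11.4 CPM, and 5.96 and 5.11 CPM in P1, P3 and P4 hESCs, lower share first. GABRP had 8.35 and 8.48 CPM, 7.98 and 8.24 CPM, and 10.1 and 6.07 CPM in the same order. CDX2 was lower in P1-2 than in P1-1, and higher in P3-1 and P4-1 than in their partners. At an unadjusted p under 0.05, 3 of the 6 were higher (4.52% of all tested genes). The median log2 difference of the 6 was 1.15, with 2 negative. That of 4 tested neuroectoderm markers was 0.85, with 0 at an unadjusted p under 0.05. SOX1 (0.258, 0.0935 and 0.151 CPM in P1-1, P3-2 and P4-2), ZIC1 and GATA3 could not have passed the filter on low counts on the lower side alone. The filter can therefore pull both medians upwards. The 8 mesenchymal markers summed to 1156 to 1529 CPM and to 943 to 1195 CPM. The part of other cell types in the differences was not tested.

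The genes that follow were taken because their smallest pair difference was among the 10 greatest upwards, so their direction in the 3 pairs was fixed by the choice (14.0% of all tested genes were higher in all 3). TFAP2A, a transcription factor of surface ectoderm, neural crest and amnion, had 0.580 and 6.10 CPM in P1-1 and P1-2, 0.0623 and 0.282 CPM in P3-2 and P3-1, and 0.377 and 1.38 CPM in P4-2 and P4-1 (log2 difference 2.62, SE 0.51, edgeR adjusted p 0.0913). Its P2 samples had 2.09 and 1.61 CPM. LHX5, a forebrain transcription factor, had 0.451 and 3.16 CPM, 0.281 and 0.880 CPM, and 0.0754 and 1.34 CPM in the 3 lines, lower share first (edgeR adjusted p 0.0941), but both P2 samples were above all of these with 7.35 and 7.46 CPM. FZD10, another WNT receptor, had 1.29 and 3.26 CPM, 0.842 and 4.05 CPM, and 1.85 and 4.76 CPM (edgeR adjusted p 0.154). IRX1 and FAM20A, a homeobox gene and a gene for a secretory pathway pseudokinase, were, with INHBB above, also among the genes whose smallest pair difference was greatest, with log2 differences of 1.87 and 1.42 (edgeR adjusted p 0.232 and 0.119). LHX5 (14, 9 and 2 counts in P1-1, P3-2 and P4-2), IRX1 (48, 5 and 11) and INHBB (52, 7 and 18) could not have passed the filter on low counts on the lower side alone. Of TFAP2A, LHX5, FZD10, IRX1 and FAM20A, none had an adjusted p under 0.05 by edgeR. By DESeq2 the adjusted p was 0.0226, 0.0312, 0.0298, 0.127 and 0.00336 in the same order. By limma on log2(TPM + 1), 0 of all tested genes had one under 0.05.

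On the lower side, 5 of the 10 genes whose smallest pair difference was greatest overlap other genes on their own strand or have near-identical copies. RGPD8, a member of a recently duplicated family of nucleoporin-like genes, had 5.09 and 1.6 CPM in P1-1 and P1-2, 4.71 and 1.90 CPM in P3-2 and P3-1, and 8.97 and 2.38 CPM in P4-2 and P4-1 (log2 difference -1.63, SE 0.33, edgeR adjusted p 0.0980). By DESeq2 the adjusted p of RGPD8 was 0.0029. Every sample of RGPD8 with the higher share lay below every sample with the lower share, as it did for 3.9% of all tested genes. ENSG00000271741, ENSG00000275740, ENSG00000281028 and ENSG00000254929 overlap 2 annotated genes each on their own strand, so their counts depend on how reads were split. NAV3, which encodes a microtubule-associated protein, had log2 differences of -1.05, -0.90 and -0.99 and 0.02 in the P2 pair (edgeR adjusted p 0.501). Among 14801 protein-coding and lncRNA genes with a mean of at least 1 CPM, 2138 were higher and 2106 lower in all 3 pairs.

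Of the 10 leading genes of the P1 pair at 5 CPM or more, GATA2 alone differed in the same direction in all 3 pairs. The 5 leading rises of the P3 pair (PCDH8, NPY5R, NODAL, LEFTY1 and SLC16A3) were positive in all 3. Of its 5 leading falls, EGR1 alone was negative in all 3, and GSDMB, TOMM5, FOSB and FOS were not. Of all tested genes, 28.0% differed in the same direction in all 3 pairs. PPFIA4, a synaptic scaffold gene known to respond to hypoxia, went from 22.6 to 101 CPM between P1-1 and P1-2, but from 15.5 to 4.22 CPM between P3-2 and P3-1 and from 18.4 to 8.18 CPM between P4-2 and P4-1. VGF, which encodes a secreted neuropeptide precursor, went from 22.8 to 8.16 CPM in the P1 pair, from 7.95 to 16.8 CPM in the P3 pair and from 8.90 to 27.8 CPM in the P4 pair. The lactate exporter SLC16A3 went from 36.6 to 136 CPM in the P3 pair and had smaller log2 differences of 0.32 and 0.62 in the P1 and P4 pairs. In the P3 pair TOMM5, a subunit of the mitochondrial import pore, went from 8.6 to 1.58 CPM, whereas the other 6 samples of the series had at least 75.3 CPM of TOMM5. YPEL2 went from 16.2 to 2.46 CPM in the P4 pair and from 7.48 to 2.22 CPM in the P3 pair, but from 3.96 to 4.29 CPM in the P1 pair.

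Properties of the libraries moved within the pairs too. The mean fragment length implied by the effective gene lengths was 198 and 201 bases in P1-1 and P1-2 and 212 and 211 bases in P3-2 and P3-1, but 230 and 198 bases in P4-2 and P4-1. The 4 tested small structured RNAs, which mRNA libraries should hold little of, had a median log2 difference of -2.79 in the P4 pair, 0.48 and 1.14 in the P1 and P3 pairs and 1.18 in the P2 pair. RN7SL1, the RNA of the signal recognition particle, had 93.5 CPM in P4-2 and 12.8 CPM in P4-1, and 65.0 and 29.6 CPM in P2-2 and P2-1. The part of these differences in the values of the P4 pair, the immediate-early genes included, was not tested.

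Gene differences followed GC content in P1 and P3 hESCs. From the quintile of tested genes with the lowest to that with the highest GC content, the median log2 difference went from -0.11 to 0.23 in the P1 pair and from -0.11 to 0.22 in the P3 pair, but from 0.09 to 0.00 in the P4 pair. The P2 pair, with its alike mitochondrial shares, went from -0.30 to 0.17. The quintile with the highest GC content took 14.3% and 17.0% of nuclear counts in P1-1 and P1-2, 12.3% and 14.2% in P3-2 and P3-1, and 15% and 15.8% in P4-2 and P4-1. It was higher in 3 of 3 pairs, for which an exact two-sided sign-flip permutation test gives p = 0.25, the smallest that 3 pairs allow. The longest quintile of genes had medians of -0.03, -0.11 and -0.15. With offsets for GC content and length the medians of the lists shifted by 0.17 at most, which was for NODAL signaling, from 0.52 to 0.35. That of the immediate-early genes went from -0.59 to -0.64, and 6 of the 35 medians, all near 0, changed sign, those of the pluripotency factors and the mesenchymal markers among them.

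**Figure D5:**
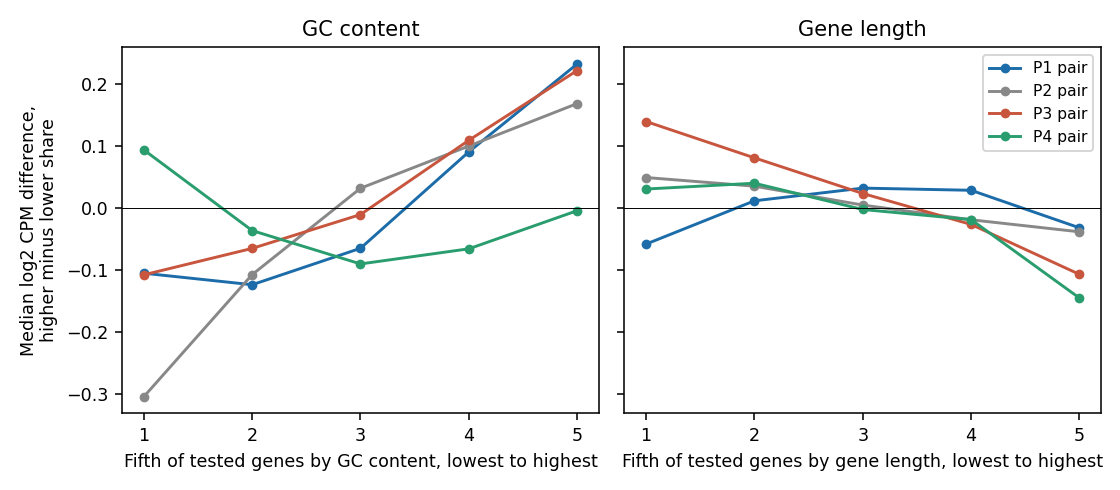
Median log2 CPM difference within each line (vertical axis, sample with the higher minus the sample with the lower mitochondrial share) of nuclear genes in quintiles of GC content (left) and of length (right), from lowest to highest. The P1, P2 and P3 pairs climb with GC content to between 0.17 and 0.23, the P4 pair does not, and the longest genes are lowest in the P3 and P4 pairs.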

How the data were processed

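Total RNA from P1 to P4 hESCs was made into stranded mRNA libraries, 2 per line. Per the submitters' processing notes the tools were FastQC, Trim Galore, STAR 2.7.3a and RSEM 1.3.3, on GRCh38. The authors deposited expected counts per gene, which are not normalized and need not be whole, with TPM and FPKM values, for 60675 genes. The FPKM values were not used. Symbols matched 56558 of them, and positions came from GENCODE release 29.

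A sample's mitochondrial share was its expected counts on 37 mitochondrially encoded genes over all its counts. Rounded counts of nuclear genes were tested in edgeR 4.0.16 (R 4.3.3) with TMM, filterByExpr and the line as a block, which leaves 2 residual degrees of freedom. Library sizes left out mitochondrial genes. The thresholds follow the paper, which names DESeq2, run here as an alternative (1.42.0), beside limma 3.58.1 on log2(TPM + 1). A pair's log2 difference used a prior count of 0.5. Levels are CPM with TMM factors, where 3 counts correspond to 0.0823 to 0.115 CPM. Named genes were those called, those with an adjusted p under 0.05, the 10 in each direction whose smallest pair difference was greatest at 1 CPM or more, the leading 5 of each pair at 5 CPM or more, and key list genes. Some other list members are named as examples, chosen after their values were seen. The members and the gene lists were chosen with earlier results of these data known. On simulated data for this comparison (18102 genes), genes were counted at an adjusted p under 0.05 with no fold minimum, a looser rule than for called genes. There edgeR found 58.2% of genes changed by 1 and 95.4% of those changed by 2 on the log2 scale. It also found 15 unchanged genes, and 1 gene where none was changed. The simulated counts were drawn for each gene separately, without shifts shared across a library such as those with GC content. These figures therefore need not hold for the data.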

Additional observations from a re-analysis of the deposited data

How the results depend on the processing

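The 9 called genes became 16 with DESeq2 (6 of them among the 9), 61 without the filter on low counts (of 32767 genes), 3 at a mean of 10 CPM or more, 2 with the logarithm of the share as a continuous covariate over all 8 samples, and 0 with limma on log2(TPM + 1) or log2(TPM + 0.1), without the line as a block, or with both P2 samples added. At an unadjusted p under 0.05 these last 4 fits had 1257, 1267, 402 and 1891 genes. Alternatives chosen after the data had been seen gave 5 calls with offsets for GC content and length and 2 without mitochondrial pseudogenes. Leaving out a pair gave 0 to 63 calls, with 0 for P4, 45 for P3 and 63 for P1. DESeq2's size factors and library sizes with mitochondrial genes each gave 9.

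With the replicate number of the labels as a block beside the line, there were 26 calls, which held all 9, and 8 list genes. The differences between replicates 1 and 2 correlated across genes with r from -0.120 to 0.165 over the pairs of lines, highest for P3 and P4. The higher share belonged to replicate 2 in P1 and replicate 1 in P3 and P4 hESCs. In P3 and P4 hESCs the share and the replicate number therefore cannot be told apart, and the labels do not say whether the number stands for a batch. The 0 list genes at an adjusted p under 0.05 became 6 with DESeq2, 12 without the filter and 2 with the continuous share. Leaving out a pair gave 0 to 21 list genes (P1, 21; P3, 9; P4, 0). The cause of these changes was not tested. Of the 29 genes that were called, had an adjusted p under 0.05 or were taken for their smallest pair difference, none changed direction under any alternative that gave a log2 difference. Of 53 other genes considered as values without a test, 21 did, TFAM going from 0.03 to -0.31 without the P4 pair. Relative to all counts in place of nuclear counts, the mean difference of the quintile of genes with the highest GC content went from 1.78 to 0.0275 percentage points.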
